A study of Mus musculus with 9 samples.

Results

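The 50 genes described here carry out or signal DNA repair, and were listed by symbol and divided by pathway into 12 homologous recombination genes, 8 Fanconi genes, 7 damage signalling genes, 8 end joining genes, 2 mismatch repair genes, 6 genes of base excision and single-strand break repair, 6 of nucleotide excision repair and 1 of translesion synthesis. All 50 were among the 14461 genes of the deposited table, and all 50 were among the 13771 genes with a normalised value of at least 1 in at least 3 libraries, which were the genes tested. The study sequenced RNA from LSK cells (lineage-negative, Sca-1+, c-Kit+ cells, the marrow fraction that holds blood stem cells and multipotent progenitors), obtained by sorting marrow of parabiotic mice, which are pairs joined surgically so that they share a circulation. There were 3 groups of 3 libraries each. Cells labelled circulating and cells labelled irradiated were of strain C57BL/6, and cells labelled endogenous were of strain B6SJL CD45.1. All mice were specific-pathogen-free and all cells were sorted from joined mice, so no group came from an unjoined animal. The labels give no age, radiation dose or time and do not say that replicate libraries are different animals, so the p-values measure the spread between libraries, which may be technical.

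Cells repair double-strand breaks either by homologous recombination, which copies the sister chromatid and is used in S and G2 phase, or by end joining, which ligates the broken ends in any phase. The Fanconi pathway unhooks crosslinks between the strands and hands the break to homologous recombination, while mismatch, base excision and nucleotide excision repair replace mispaired, small and bulky lesions. In blood-forming tissue these pathways are known from inherited disease and mouse mutants: loss of Fanconi genes causes marrow failure, and loss of end joining genes stops lymphocyte development and exhausts stem cells with age.

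The sequences shown are upstream stretches of some of the members with large differences between groups. They were taken from the RefSeq promoter windows of build GRCm38.p6, are written 5′ to 3′ on the gene's strand, and hold only bases outside annotated exons. Trp53bp1 and Lig4 were the only members that passed the test in a pairwise comparison. Bard1 and Mdc1 are shown with them because their windows hold the cell cycle motifs searched for. Capitals mark an E2F motif (TTTCCCGC in both) and, in Bard1, a CHR motif (TTTGAA). No motif searched for lies in the stretches of Trp53bp1 and Lig4. Bard1 and Mdc1 were not called. Ercc2, whose largest log2 difference between groups (0.810) was next to that of Mdc1 (0.809), holds none of the motifs and is not shown.
Trp53bp1, chr2:121271408-121271657, minus strand: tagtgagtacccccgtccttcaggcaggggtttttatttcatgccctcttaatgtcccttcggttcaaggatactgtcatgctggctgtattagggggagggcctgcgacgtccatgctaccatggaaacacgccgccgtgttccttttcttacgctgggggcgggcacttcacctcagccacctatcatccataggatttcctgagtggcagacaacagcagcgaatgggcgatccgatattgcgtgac
Lig4, second RefSeq start, chr8:9976312-9976561, minus strand, inside the gene: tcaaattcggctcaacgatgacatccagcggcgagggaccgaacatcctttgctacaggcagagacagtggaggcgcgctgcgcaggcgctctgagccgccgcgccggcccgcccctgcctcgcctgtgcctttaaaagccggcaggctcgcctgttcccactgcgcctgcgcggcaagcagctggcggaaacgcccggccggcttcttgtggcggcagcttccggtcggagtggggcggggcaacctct
Bard1, chr1:71103147-71103222, minus strand: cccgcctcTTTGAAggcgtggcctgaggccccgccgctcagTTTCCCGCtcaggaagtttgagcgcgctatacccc
Mdc1, chr17:35841248-35841497, plus strand: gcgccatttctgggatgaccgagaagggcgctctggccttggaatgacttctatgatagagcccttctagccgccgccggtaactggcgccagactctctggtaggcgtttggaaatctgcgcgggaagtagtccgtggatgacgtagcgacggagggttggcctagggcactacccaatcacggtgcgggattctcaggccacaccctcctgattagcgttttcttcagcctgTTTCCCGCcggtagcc
E2F factors switch on genes needed for DNA replication, and the CHR element is bound by complexes that time transcription to G2 and mitosis. Promoter windows were found for 39 of the 50 members (42 start sites) and none for Rad50, Nbn, Exo1, Xrcc2, Fancd2, H2afx, Prkdc, Rif1, Polb, Xpc and Ddb2. In the 250 bases before the start, on both strands, an E2F motif (TTTCCCGC, TTTGGCGC, TTTCGCGC, TTTGCCGC or their reverse complements) lay in 7 of the 42 windows (16.7%), those of Brca2, Bard1, Fancg, Chek2, Mdc1, Topbp1 and Xrcc6. The share among all 32851 RefSeq windows was 1.86%. The same motif lay in 5 of 16 windows (31.2%) of a list of S phase genes and in 2 of 76 windows (2.63%) of a wider list of repair genes. A CHR motif (TTTGAA or TTCAAA) lay in 1 of the 42 member windows (2.38%), that of Bard1, against 16% of all windows and 6 of 16 windows (37.5%) of a list of G2/M genes. The E2F and CHR letters do not overlap in the Bard1 window. These matches describe the letters in the windows and do not show that a factor binds there.

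Before the results, some facts of the whole series bear on them. The libraries held between 14065855 and 27012345 estimated counts, with circulating library 2 the shallowest. The gate's markers Ly6a (Sca-1), Kit, Cd34 and Flt3 were all above 3 counts in every library. Kit was lower in circulating cells (327, 401 and 410) than in endogenous cells (887, 1011 and 737, limma adjusted p = 0.0026). It was the 1 gate marker called there, but all 4 had negative log2 differences of circulating minus endogenous (median -0.67). For 3 of the 4 the values did not overlap. Irradiated minus endogenous differences were negative for all 4 as well (median -0.45), 3 of them without overlap, and 0 were called. Ctse and Cxcr4, which lie on chromosome 1 as the Ptprc (CD45) gene does, were at like values in circulating and endogenous cells and lower in irradiated cells. Ctse was at 648, 508 and 713 in circulating cells, 45.4, 63.4 and 75.7 in irradiated cells and 711, 831 and 735 in endogenous cells. That pattern groups the circulating libraries with the endogenous ones, while the strain label groups them with the irradiated ones, so strain and condition cannot be told apart in the comparisons with endogenous cells by the labels, nor in those with irradiated cells by these genes. Over all genes 5.33% were called higher and 3.3% lower in circulating than in endogenous cells. Of the marker genes of other cell types and of the gate, 12 of 41 were higher and 1 was lower. All 5 myeloid progenitor markers (Mpo, Elane, Prtn3, Ctsg, Ms4a3) were among the higher ones. Their summed value ran from 12796 to 38756 in circulating, 7609 to 16059 in irradiated and 2110 to 3041 in endogenous libraries. B cell markers summed to 104 to 273 in circulating against 63.8 to 94.5 in endogenous libraries. The sums were 501 to 1653 against 139 to 226 for monocytes and macrophages and 515 to 897 against 222 to 278 for NK cells. Those of dendritic cells were 24.2 to 149 against 7.81 to 10.7. Neutrophil sums overlapped (1144 to 1806 against 1015 to 2111). Over the 41 markers, 29 log2 differences of circulating minus endogenous were positive and 12 negative. T cell markers summed to 3.79, 74.8 and 9.62 in circulating libraries 1, 2 and 3, so library 2 alone was high. The sums were 2.14 to 5.40 in irradiated and 9.40 to 15.1 in endogenous libraries. The markers at or under 3 counts in at least 1 library were Pax5, Cd3e, Cd3d, Cd4, Alas2, Siglech and Itgax. The part of these cells in the repair results was not tested. In sorted bulk samples, fewer cells of a type and less RNA per cell cannot be told apart.

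Per kilobase of exon, the members spanned a wide range of levels. In endogenous cells the mean normalised value per kilobase was highest for Apex1 (151), the endonuclease that cuts at sites with a missing base, H2afx (88.4), the histone variant phosphorylated around breaks, Msh6 (58.1), a mismatch sensor, Xrcc6 (43.8), the Ku70 subunit that caps broken ends, and Xpc (40.8), the sensor of bulky lesions. The lowest were Lig4 (0.143), Ercc2 (0.426), Bard1 (0.473) and Rad51c (0.883). The core signalling kinases Atm (3.87) and Atr (2.89) and the end joining kinase Prkdc (4.22) lay in the lower part of the range. The annotated exon lengths used for them were 10338, 23629 and 13187 bases, and their ranks depend on those lengths. Whether those lengths match the transcripts present in these cells was not tested. Apex1 and H2afx led and Lig4 and Ercc2 were among the 3 lowest in circulating cells too, where Apex1 was at 187, H2afx at 113, Lig4 at 0.177 and Ercc2 at 0.733 per kilobase. In irradiated cells the lowest 3 were Ercc2 (0.885), Bard1 (0.932) and Lig4 (1.20). Ercc2, a helicase of the transcription factor TFIIH, had only 3 estimated counts in circulating library 2, and Lig4 had 0 there, so ratios for these genes carry wide errors.

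**Figure D1:**
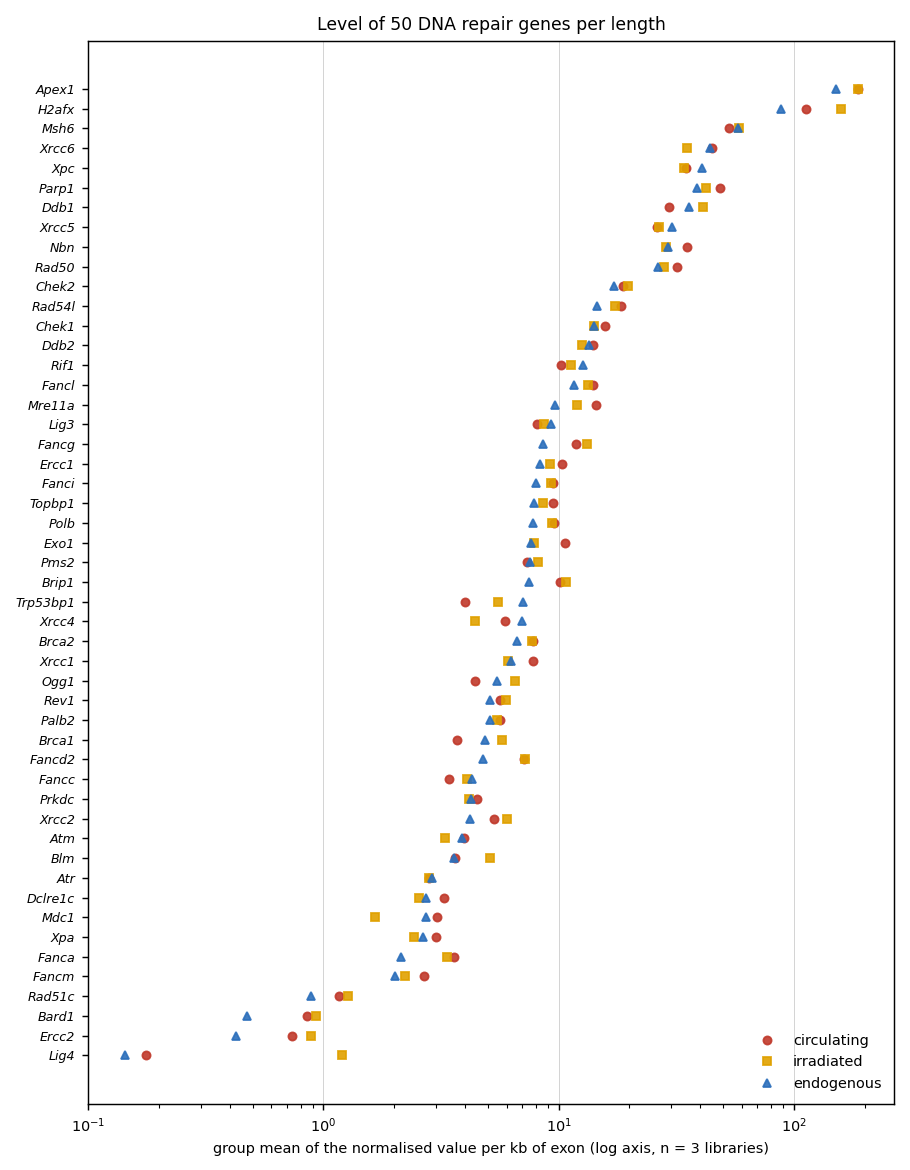
Mean normalised value per kilobase of exon of each of the 50 repair genes in circulating, irradiated and endogenous LSK cells (log axis, n = 3 libraries per group), ordered by the endogenous mean. Levels run from Lig4 at 0.143 to Apex1 at 151 in endogenous cells, and for most genes the 3 group means lie close together, with Lig4 in irradiated cells (1.20) the widest departure.

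The series concerns the dissemination of blood stem cells, and the comparison of circulating with endogenous cells asks how LSK cells so labelled differ in the joined mice. Of the 50 repair genes, 0 were higher and 1, Trp53bp1, was lower (limma, adjusted p under 0.05), where 8.63% of all tested genes were called (5.33% higher and 3.3% lower). Among all genes 734 were higher and 455 lower on the deposited scale, but 336 higher and 816 lower once columns were scaled to equal sums, which shifts the median of all genes by -0.18 on the log2 scale. Between circulating and irradiated cells 0 of 50 were called, where 4 genes (0.029%) were called in all (0.0218% higher and 0.00726% lower). At an unadjusted p under 0.05, limma listed 4 of the 50 in that comparison, against 11.4% of all genes. Between irradiated and endogenous cells 1 of 50, Lig4, was higher, where 0.603% of all genes were called (0.472% higher and 0.131% lower). At an unadjusted p under 0.05 the counts were 7 of 50 for circulating against endogenous cells (26.7% of all genes) and 8 of 50 for irradiated against endogenous cells (14.9% of all genes). The circulating and endogenous values did not overlap for 7 of 50 members (14%), 6 of them higher and 1 lower in circulating cells, against 27.5% of all genes (14.6% higher and 12.9% lower). For circulating and irradiated cells the values did not overlap for 7 of 50, 5 higher and 2 lower, against 16.7% of all genes (7.46% higher and 9.26% lower). For irradiated and endogenous cells they did not overlap for 10 of 50, 8 higher and 2 lower, against 27.7% of all genes (15.2% higher and 12.5% lower).

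Most repair genes could be bounded to less than a 2-fold difference. The 95% interval of the log2 difference lay within 2-fold either way for 41 of 50 members between circulating and endogenous cells, 40 of 50 between circulating and irradiated cells and 39 of 50 between irradiated and endogenous cells. The shares among all tested genes were 47.8%, 55.6% and 55.2%. The narrowest intervals included Msh6 (-0.41 to 0.12 for circulating minus endogenous) and Atr (-0.39 to 0.30). The spread between libraries of a group was of the same order for the members as for genes at large. The members' median SD of log2(value + 1) was 0.327, 0.181 and 0.230 for the circulating, irradiated and endogenous group, against 0.382, 0.213 and 0.262 for all genes.

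**Figure D2:**
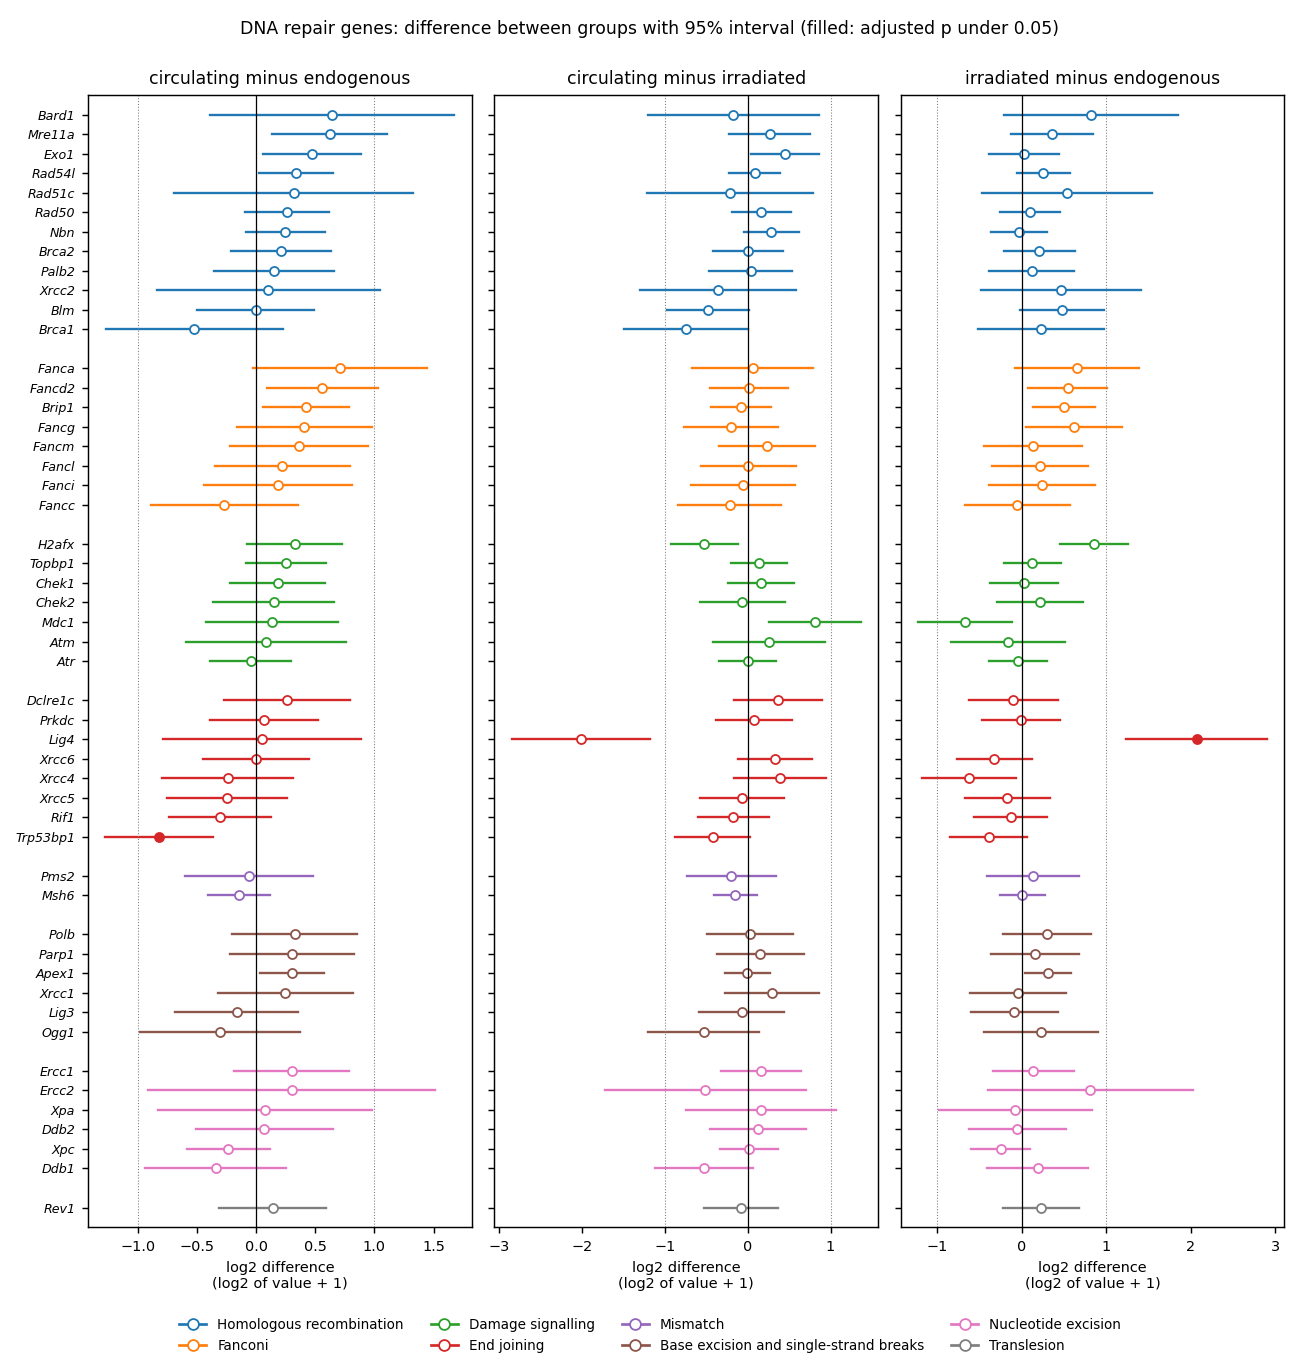
Log2 difference of each of the 50 repair genes, with its 95% interval from limma on log2(value + 1), for circulating minus endogenous, circulating minus irradiated and irradiated minus endogenous cells (n = 3 libraries per group), coloured by pathway. Filled points pass an adjusted p of 0.05: Trp53bp1 (-0.82) in the left panel and Lig4 (2.07) in the right panel. Dotted lines mark a 2-fold difference.

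Among the end joining genes, the 2 calls went to genes at different steps of the pathway. Trp53bp1 encodes 53BP1, a chromatin reader that gathers at breaks and shields the ends from resection, which favours end joining over homologous recombination. Its normalised values were 50.7, 64.8 and 53.8 in circulating cells, 106, 61.2 and 66.5 in irradiated cells and 93.2, 104 and 102 in endogenous cells. Every circulating library lay below every endogenous one, while the irradiated libraries spread across both, with library 1 at the endogenous level and the other two near the circulating level. The means were 56.4 ± 7.42 (SD, n = 3) in circulating and 99.8 ± 5.79 (SD, n = 3) in endogenous cells, a log2 difference of -0.82 (SE 0.21, limma adjusted p = 0.036). The difference from irradiated cells (77.9 ± 24.5, SD, n = 3) did not pass the test in either direction (limma adjusted p = 0.47 for circulating and 0.41 for endogenous cells). The call depended on single libraries and on the fit. Its limma adjusted p was 0.052, 0.082, 0.055, 0.090, 0.103 and 0.094 without circulating library 1 or 3, irradiated library 3 or endogenous library 1, 2 or 3, and 0.106 with library weights and 0.057 with only those 2 groups in the fit. The call was also lost with the replicate number as a block in the fit. The log2 difference stayed between -1.02 and -0.74 in all 18 alternatives. Trp53bp1 (chr2:121193281-121271407, mm10, minus strand) shares exon positions with Tubgcp4, which stood at 97.3, 57.9 and 83.4 in circulating and 65.5, 59.6 and 41.3 in endogenous cells and was not called. The library kit keeps no strand, so reads in the shared positions cannot be assigned to either gene.

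Lig4 encodes the ligase that seals the ends in the last step of classical end joining. Its normalised values were 1.33, 0.0376 and 1.39 in circulating cells, 6.45, 6.04 and 6.29 in irradiated cells and 0.564, 0.639 and 1.02 in endogenous cells. The 3 irradiated libraries lay close together and well above the other 6. These values rest on few reads: 29, 0 and 24 estimated counts in circulating, 143, 164.99 and 153.05 in irradiated and 14, 14 and 26 in endogenous libraries. The log2 difference between irradiated and endogenous cells was 2.07 (SE 0.38, 95% interval 1.23 to 2.90, limma adjusted p = 0.038). A pseudocount of 1 understates the change of so low a gene, and on the recovered estimated counts the log2 difference was 3.12 (limma-voom adjusted p = 0.095). Between circulating and irradiated cells it was -2.02 (SE 0.38, limma adjusted p = 0.097), and 0.043 was reached without circulating library 1. The call against endogenous cells was lost without any 1 irradiated library (limma adjusted p 0.184, 0.114 and 0.187 for libraries 1, 2 and 3) or endogenous library (0.157, 0.148 and 0.089), with a pseudocount of 0.5 (0.064) and with a filter at a value of 5 in 3 libraries (0.082). In all 18 alternatives the irradiated level stayed above the endogenous one. Lig4 (chr8:9969049-9977686, mm10, minus strand) lies next to Abhd13, which begins at position 9977707 on the plus strand. Abhd13 stood at 12.3, 11.4 and 12.0 in irradiated, 5.27, 4.99 and 7.39 in circulating and 5.28, 22.1 and 9.70 in endogenous cells, and was not called. The pattern across groups, irradiated cells apart from both others, is also that of Ctse and Cxcr4. By the labels, circulating and irradiated cells are of the same strain and endogenous cells of another. If strain instead follows Ctse and Cxcr4, strain and irradiation cannot be told apart for Lig4. Which of these holds was not tested.

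The other 6 end joining genes were not called in any comparison. Xrcc4, the scaffold that holds Lig4, was at 22.1, 16.6 and 17.2 in irradiated and 35.6, 25.4 and 27.0 in endogenous cells, values that did not overlap (log2 difference -0.62, limma adjusted p = 0.27). This is the opposite sign to its partner Lig4. The Ku subunits were Xrcc6 (log2 difference of circulating minus endogenous -0.00, 95% interval -0.45 to 0.45) and Xrcc5 (-0.24, -0.75 to 0.26). The kinase Prkdc (0.07, -0.39 to 0.53) and the nuclease Dclre1c, or Artemis (0.26, -0.27 to 0.79), had intervals that also include 0. Rif1, which acts with 53BP1 to hold back resection, was at 127, 81.2 and 114 in circulating and 109, 168 and 121 in endogenous cells (-0.31, limma adjusted p = 0.35). For the 8 end joining genes the median log2 difference of circulating minus endogenous was -0.12 (-0.32 with equal column sums), and 5 of 8 were negative. For irradiated minus endogenous it was -0.15 (-0.29 with equal sums) and 7 of 8 were negative, Lig4 being the exception. Measured from the median of all genes, these medians were -0.08 (-0.10 with equal sums) and -0.14 (-0.16 with equal sums).

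In the damage signalling class no gene passed the test, and the members with the widest differences set irradiated cells apart. H2afx was at 121, 148 and 199 in circulating, 212, 215 and 234 in irradiated and 131, 101 and 135 in endogenous cells. All 3 irradiated libraries exceeded the other 6. The log2 difference of irradiated minus endogenous was 0.85 (SE 0.18, limma adjusted p = 0.062). It passed at 0.026 without circulating library 1, at 0.019 without circulating library 3, at 0.0067 with library weights, at 0.0081 with only those 2 groups and at 0.045 with the filter at a value of 5. Mdc1, the scaffold that binds phosphorylated H2AX, was instead lowest in irradiated cells. Its values were 17.5, 26.9 and 23.0 in circulating, 11.3, 11.6 and 13.8 in irradiated and 20.9, 17.9 and 21.6 in endogenous cells, again with no overlap. The log2 difference of circulating minus irradiated was 0.81 (SE 0.25, limma adjusted p = 0.31), and of irradiated minus endogenous -0.68 (SE 0.25, limma adjusted p = 0.24). The kinases and their activator did not set irradiated cells apart from both other groups. Atr, which answers stalled replication, was at 64.4, 73.9 and 60.9 in circulating, 70.6, 59.9 and 68.6 in irradiated and 68.3, 74.4 and 62.6 in endogenous cells, which overlap throughout. Atm, which answers breaks, ranged from 31.4 to 51.4 in circulating, 29.9 to 41.3 in irradiated and 22.7 to 48.7 in endogenous cells. The checkpoint kinases Chek1 (log2 difference of circulating minus endogenous 0.18) and Chek2 (0.15) and the Atr activator Topbp1 (0.26) had adjusted p of 0.55, 0.72 and 0.31 in the same limma fit. Cdkn1a, the p53 target that holds cells out of S phase, was not called in any comparison and stood at 12.2, 15.9 and 10.7, at 11.3, 14.0 and 13.3, and at 4.53, 12.2 and 12.8 in circulating, irradiated and endogenous libraries.

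**Figure D3:**
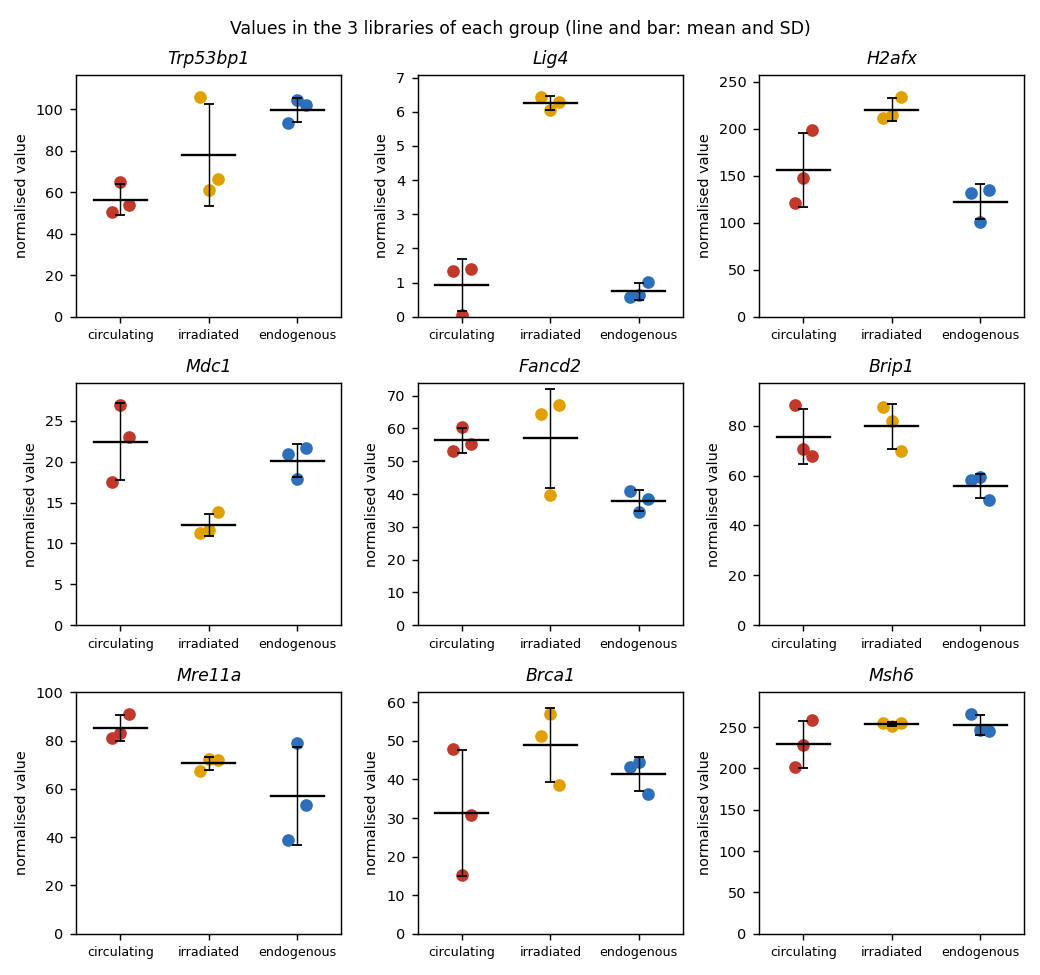
Normalised values of 9 repair genes in the 3 circulating, 3 irradiated and 3 endogenous libraries (points), with the group mean and SD (line and bar). Trp53bp1 is lowest in circulating cells (56.4 ± 7.42), Lig4 (6.26 ± 0.205) and H2afx (220 ± 12.1) are highest in irradiated cells, and Msh6 stays between 201 and 266 throughout. The genes plotted were chosen after their values were seen.

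The homologous recombination and Fanconi genes gave 0 calls in every comparison. On the deposited scale their differences were small and mostly of 1 sign, with values above the endogenous ones in both circulating and irradiated cells. For the 12 homologous recombination genes the median log2 difference was 0.25 for circulating minus endogenous (0.05 with equal column sums), 0.24 for irradiated minus endogenous (0.11 with equal sums) and 0.02 for circulating minus irradiated (-0.05 with equal sums). Positive values on the deposited scale were found for 10 of 12 and 11 of 12 in the first pair of comparisons, which share the endogenous libraries. Over all 13771 genes 6467 and 6757 were positive in those comparisons. For the 8 Fanconi genes the medians were 0.39 (0.19 with equal sums), 0.37 (0.24) and -0.02 (-0.09), with 7 of 8 positive in each comparison with endogenous cells. The median over all genes was -0.04, -0.01 and -0.02 in the same order, and with equal column sums -0.22, -0.13 and -0.09. For all 50 members it was 0.17, 0.14 and 0.005, and with equal column sums -0.03, 0.005 and -0.06. Measured from the median of all genes, the members' medians were 0.21, 0.14 and 0.03, and with equal sums 0.20, 0.14 and 0.02. On that measure the recombination median for circulating minus endogenous was 0.29 (0.27 with equal sums) and the Fanconi median 0.43 (0.41).

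Among the recombination genes, Bard1 had the largest difference between circulating and endogenous cells. It is the partner with which Brca1 forms a ubiquitin ligase. Bard1 was at 7.61, 2.29 and 4.53 in circulating, 5.08, 7.29 and 3.46 in irradiated and 3.67, 1.04 and 3.31 in endogenous cells, and these ranges overlap (log2 difference of circulating minus endogenous 0.64, SE 0.47, limma adjusted p = 0.41). Brca1 was the only recombination gene other than Blm with a lower estimate in circulating than in endogenous cells. Its values were 48.0, 15.3 and 30.8 in circulating, 51.2, 57.1 and 38.5 in irradiated and 43.1, 44.5 and 36.3 in endogenous cells, with circulating library 2 the lowest of all 9 (-0.52, SE 0.34, limma adjusted p = 0.35). Brca2, a mediator of strand exchange on resected ends, was at 107, 131 and 81.6 in circulating and 102, 93.8 and 76.9 in endogenous cells (0.21, limma adjusted p = 0.51). Its partner Palb2 differed by 0.15 (95% interval -0.35 to 0.66).

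The nucleases that resect ends, and a motor protein of strand exchange, gave the recombination values that did not overlap between circulating and endogenous cells. Mre11a was at 81.0, 83.0 and 91.2 in circulating, 67.4, 72.6 and 71.9 in irradiated and 39.0, 79.2 and 53.5 in endogenous cells. All 3 circulating libraries exceeded the other 6, but the endogenous spread was wide (log2 difference 0.62, SE 0.22, limma adjusted p = 0.10). Without endogenous library 2, Mre11a was the 1 member called in that comparison. Its complex partners Rad50 (0.26) and Nbn (0.25) had adjusted p of 0.33 and 0.32 in the limma fit. Exo1, which extends resection, was at 85.0, 101 and 84.1 in circulating, 80.0, 50.1 and 69.2 in irradiated and 59.0, 64.4 and 69.7 in endogenous cells (0.47 against endogenous, limma adjusted p = 0.13). That motor protein, Rad54l, was at 151, 122 and 153 in circulating and 109, 120 and 107 in endogenous cells (0.34, limma adjusted p = 0.16). Blm, the helicase lost in Bloom syndrome, was at 38.2, 55.4 and 40.3 in irradiated and 36.5, 29.6 and 28.7 in endogenous cells (0.47, limma adjusted p = 0.36). Rad51c and Xrcc2, which act in strand exchange, had intervals wider than 2-fold (-0.69 to 1.32 and -0.84 to 1.04 for circulating minus endogenous). In circulating cells Xrcc2 was at 16.7, 14.4 and 52.3, so library 3 alone raised its mean.

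In the Fanconi pathway, Fanca, a core complex member, had the largest difference of circulating minus endogenous, 0.71 (SE 0.33, limma adjusted p = 0.20). Its values were 19.2, 37.3 and 38.0 in circulating, 23.5, 27.3 and 37.6 in irradiated and 19.99, 23.9 and 12.2 in endogenous cells, and circulating library 1 lay inside the endogenous range. Fancd2, which the core complex ubiquitinates together with Fanci, was at 53.1, 60.6 and 55.3 in circulating, 64.4, 39.7 and 67.1 in irradiated and 40.9, 34.5 and 38.6 in endogenous cells. Its circulating and endogenous libraries did not overlap (0.56, SE 0.21, limma adjusted p = 0.12), and the same held for Brip1, the helicase that links the pathway to Brca1. Brip1 was at 88.3, 70.6 and 68.1 in circulating, 87.4, 82.1 and 69.9 in irradiated and 58.2, 59.3 and 50.4 in endogenous cells. All 3 endogenous libraries lay below the other 6 (0.42 for circulating and 0.50 for irradiated minus endogenous, limma adjusted p = 0.13 and 0.18). Fancg was at 57.3, 44.1 and 49.0 in irradiated and 38.3, 28.4 and 31.0 in endogenous cells (0.61, limma adjusted p = 0.30). The other members were Fanci (0.19), Fancl, the ubiquitin ligase of the core complex (0.22), Fancm, its DNA anchor (0.36), and Fancc (-0.27), with adjusted p from 0.41 to 0.71 for circulating minus endogenous in the limma fit.

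Genes of DNA replication and division were listed beside the repair genes, and some of them passed the test. Between circulating and endogenous cells 9 of 20 S phase genes were higher (median log2 difference 0.49) and 13 of 18 G2/M genes were higher (median 0.95), with 0 lower, where 5.33% of all genes were called higher. Between irradiated and endogenous cells 2 of 20 and 4 of 18 were higher (medians 0.43 and 0.76), where 0.472% of all genes were called higher, and between circulating and irradiated cells 0 of 38 were called (medians 0.08 and 0.14). Mki67, a marker of cycling cells, was at 396, 280 and 391 in circulating, 366, 344 and 353 in irradiated and 208, 242 and 230 in endogenous cells. Pcna, the replication clamp, was at 430, 523 and 475, at 414, 438 and 418, and at 313, 379 and 320. Relative to the endogenous mean, the mean log2(value + 1) of the 12 recombination genes was 0.13 to 0.37 in circulating, 0.27 to 0.33 in irradiated and -0.03 to 0.03 in endogenous libraries. For the S phase genes the same measure was 0.39 to 0.68, 0.39 to 0.55 and -0.03 to 0.06, and for the G2/M genes 0.58 to 1.26, 0.57 to 0.90 and -0.07 to 0.05. The part of cell cycle phase in the repair values was not tested. With equal column sums 4 S phase and 10 G2/M genes were higher in circulating than in endogenous cells. Without circulating library 3 the counts were 5 and 8, without irradiated library 1 they were 5 and 11, and without endogenous library 1, 2 or 3 they were 3, 5 or 4 S phase genes and 8 G2/M genes each. Between irradiated and endogenous cells the S phase and G2/M counts were 9 and 15 with library weights and 8 and 13 with only those 2 groups. They were 0 and 0 without irradiated library 1 or 3 or endogenous library 1 or 2, 1 and 3 without irradiated library 2, and 0 and 1 without endogenous library 3. Without circulating library 1, 2 or 3 they were 3 and 8, 2 and 11, or 4 and 11.

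**Figure D4:**
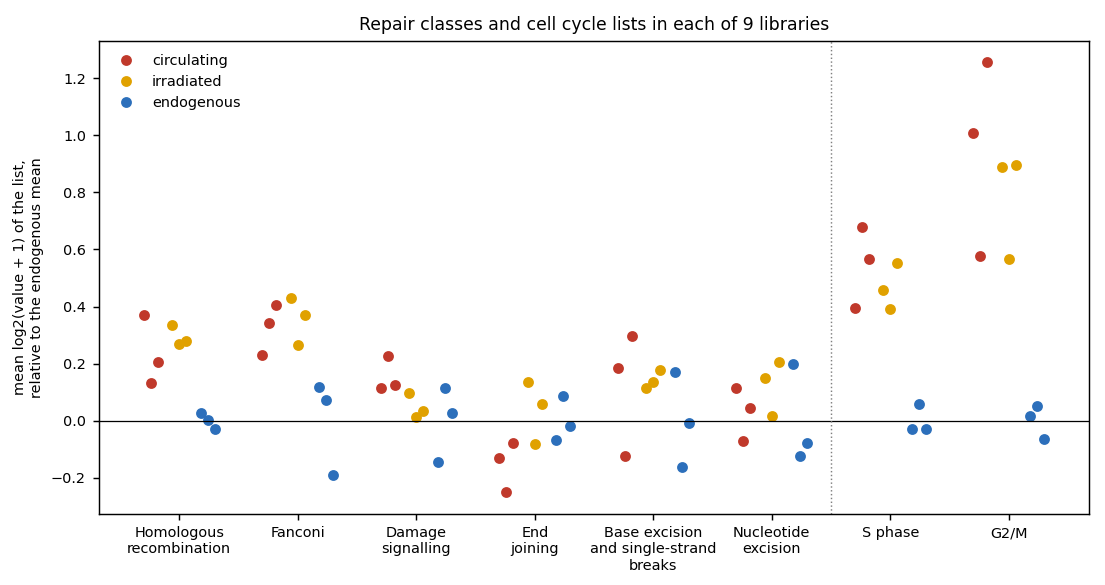
Mean log2(value + 1) of each repair class of 6 or more genes and of the S phase and G2/M lists in every library, relative to the endogenous mean. All positions are on the deposited scale. The recombination and Fanconi classes lie above the endogenous libraries in all circulating and irradiated libraries. The end joining class lies below the endogenous libraries in the circulating libraries (-0.25 to -0.08 against -0.07 to 0.09). The largest difference in the end joining class was that of Trp53bp1 (-0.82), and 3 of 8 genes were positive for circulating minus endogenous. The position of the class without Trp53bp1 was not tested. The damage signalling class is higher in circulating (0.12 to 0.23) than in irradiated libraries (0.01 to 0.10). In the damage signalling class Mdc1, which was not called, had the largest difference of circulating minus irradiated (0.81). There 3 of 7 genes, H2afx among them, had the opposite sign. The position of the class without Mdc1 was not tested. The 2 excision classes overlap between all groups.

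A wider list of repair genes shows that the recombination and base excision pathways held called genes outside the 50. Of its 81 genes 80 were tested and Neil2 was not analysed here. Between circulating and endogenous cells 10 of 80 were higher and 0 lower (median 0.21), where 5.33% of all genes were called higher and 3.3% lower. In the other comparisons 0 of 80 were called by limma. At an unadjusted limma p under 0.05 there were 21 of 80 for circulating minus endogenous, 20 higher and 1 lower, against 26.7% of all genes. The counts were 6 of 80 for circulating minus irradiated, against 11.4% of all genes, and 11 of 80 for irradiated minus endogenous, against 14.9%. Circulating and endogenous values did not overlap for 22 of 80 (27.5%), 20 higher and 2 lower. The share over all genes was 27.5% (14.6% higher and 12.9% lower). The called genes were 5 of 20 for recombination (among them Dna2, Rad51ap1, Rbbp8 and Rpa1), 4 of 14 for base excision (Tdg, Fen1, Lig1, Parp2) and 1 of 14 for nucleotide excision (Gtf2h2). Fen1, the flap nuclease of replication and long-patch base excision, was at 235, 276 and 316 in circulating, 243, 262 and 231 in irradiated and 166, 180 and 162 in endogenous cells (0.69 for circulating minus endogenous, SE 0.13, limma adjusted p = 0.014). Tdg, which removes thymine and oxidised methylcytosine, was at 235, 277 and 271, at 212, 171 and 224, and at 131, 159 and 179 (0.75, SE 0.15, limma adjusted p = 0.019). For both genes no circulating value overlapped an endogenous one. Dna2, a nuclease of long resection, had the largest difference of the 10, 0.85 (limma adjusted p = 0.043). Several of the 10 (Fen1, Lig1, Rpa1, Dna2) also act in ordinary replication. With equal column sums 2 of the 80 were called, with library weights 2 and with only the 2 groups 0. Without circulating library 1, 2 or 3 the count was 12, 6 or 4, without irradiated library 1, 2 or 3 it was 3, 4 or 4, and without endogenous library 1, 2 or 3 it was 1, 1 or 2.

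Of the 50 members, no gene of excision, mismatch or translesion repair was called in any comparison. Msh6, which reads mispaired bases, was at 201, 228 and 258 in circulating, 255, 251 and 255 in irradiated and 266, 246 and 245 in endogenous cells. Its log2 difference of circulating minus endogenous was -0.14 (95% interval -0.41 to 0.12, limma adjusted p = 0.47). Pms2, the mismatch nuclease subunit, differed by -0.06 (-0.60 to 0.48). Among the 6 base excision members the largest difference of circulating minus endogenous was that of Polb, the gap-filling polymerase, with 38.4, 38.5 and 35.5 in circulating, 43.5, 35.3 and 32.2 in irradiated and 38.8, 21.2 and 31.7 in endogenous cells (0.33, SE 0.24, limma adjusted p = 0.41). The endogenous range covered most of the others. Apex1 was at 233, 282 and 282 in circulating, 260, 281 and 256 in irradiated and 221, 227 and 194 in endogenous cells, with all 3 endogenous libraries below the other 6 (0.30 and 0.31, limma adjusted p = 0.14 and 0.26). Without circulating library 1, Apex1 was the 1 member called between circulating and endogenous cells. Parp1, the sensor of single-strand breaks, ranged from 172 to 330 in circulating, 191 to 249 in irradiated and 166 to 265 in endogenous cells. The scaffold Xrcc1 (0.25), the ligase Lig3 (-0.16) and the 8-oxoguanine glycosylase Ogg1 (-0.30) had adjusted p of 0.58, 0.69 and 0.56 for circulating minus endogenous in the limma fit.

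In nucleotide excision repair the largest difference of circulating minus endogenous was that of Ddb1, an adaptor of the ubiquitin ligase that marks ultraviolet lesions. Ddb1 was at 111, 219 and 234 in circulating, 234, 223 and 330 in irradiated and 278, 230 and 182 in endogenous cells (-0.34, SE 0.27, limma adjusted p = 0.45), and circulating library 1 alone lay under the other 8. Its lesion-binding partner Ddb2 was at 50.1, 32.6 and 32.1, at 38.0, 30.8 and 34.4, and at 45.7, 39.5 and 25.0, with full overlap. Xpc ranged from 157 to 220 in circulating, 171 to 204 in irradiated and 186 to 244 in endogenous cells. The nuclease subunit Ercc1 (0.30), the damage verifier Xpa (0.08) and the helicase Ercc2 (0.30) were not called, and the interval of Ercc2 ran from -0.91 to 1.51. Rev1, the translesion polymerase and the only member of its class, was at 31.7, 31.2 and 41.7 in circulating, 33.6, 35.3 and 41.6 in irradiated and 27.5, 32.2 and 34.5 in endogenous cells (0.14, SE 0.20, limma adjusted p = 0.70). The medians of the 6 base excision and 6 nucleotide excision genes were 0.28 and 0.08 for circulating minus endogenous (0.08 and -0.11 with equal sums) and 0.01 and 0.07 for circulating minus irradiated (-0.06 and 0.003 with equal sums). Measured from the median of all genes, those for circulating minus endogenous were 0.32 and 0.12 (0.30 and 0.12 with equal sums).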

How the data were processed

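RNA from 9 sorted LSK samples was amplified with SMART-Seq v4 and made into Nextera XT libraries, per the labels. Tools listed in the submitters' processing notes are RSEM 1.3.1, CASAVA and limma, with build mm10 and no role for any of them. The deposited table holds a normalised signal per gene, which fits an estimated count with 2 decimals, plus 0.5, times 1 constant per library. The way the authors chose that constant is not given in the sources used here. Estimated counts were recovered from it for depth and for 1 alternative. Genes with a value of at least 1 in at least 3 libraries were tested with limma 3.58.1 (R 4.3.3, limma-trend, robust) on log2(value + 1), in 1 fit of all 9 libraries without covariates, two-sided, with Benjamini-Hochberg adjustment over 13771 genes and a threshold of 0.05. The script was tested on simulated data. Symbols, coordinates and exon lengths came from GENCODE annotation of mm10, which named 14405 of 14461 genes. For 29 of 50 members some exon positions are shared with another gene.

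The members, lists and rules were chosen with earlier results of these data known. Values in every library are given for members called in any comparison and for the member of each class with the largest difference between circulating and endogenous cells. Other members shown by library were picked after their values were seen. Of the wider list, called genes are named, except 1 that is not reported here.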

Additional observations from a re-analysis of the deposited data

How the results depend on the processing

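Counts moved more than directions did. In circulating against endogenous cells 1189 genes were called, 494 with library weights and 239 with only those 2 groups. Leaving out 1 library gave 262 to 2230: 2230, 941 and 530 without circulating library 1, 2 and 3, 634, 701 and 653 without irradiated library 1, 2 and 3, and 262, 301 and 484 without endogenous library 1, 2 and 3. In circulating against irradiated cells 4 were called, 8 with a pseudocount of 2, 13 with a filter at 5, 11 with equal column sums and 8 by limma-voom. Leaving out 1 library gave 3 to 134, with 134, 7 and 9 without circulating library 1, 2 and 3. In irradiated against endogenous cells 83 were called, 138 with a filter at 5, 897 with library weights and 757 with only those 2 groups. Leaving out 1 library gave 6 to 265: 265, 138 and 243 without circulating library 1, 2 and 3, 7, 32 and 6 without irradiated library 1, 2 and 3, and 6, 7 and 28 without endogenous library 1, 2 and 3. Among the 50 members, circulating against endogenous cells gave 1 call, 0 with library weights and with only those 2 groups, and 0 to 1 without 1 library. Circulating against irradiated cells gave 0, and 0 to 1 without 1 library (Lig4, without circulating library 1). Irradiated against endogenous cells gave 1, 0 with a pseudocount of 0.5 and by limma-voom, 2 with library weights and with only those 2 groups, and 0 to 2 without 1 library. The causes were not tested. No called member changed sign in any of the 18 alternatives.

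A fit with the replicate number as a block called 1147, 9 and 105 genes in the 3 comparisons, and 0, 0 and 1 members (Trp53bp1 adjusted p = 0.0504, Lig4 0.048). Same-numbered circulating and irradiated libraries also share a title code (DD) whose meaning the labels do not give, while endogenous libraries carry another (SJ). The numbers were not taken as pairs, and whether they mark pairs is not settled here. Deviations of same-numbered circulating and irradiated libraries correlated at 0.050, 0.031 and 0.182. Differently numbered ones correlated at -0.167 to 0.106, and only circulating library 1 with irradiated library 2 was positive. That value (0.106) exceeded the one of circulating library 1 with irradiated library 1. With 3 libraries a group, 0 to 29 estimated counts of Lig4 in circulating and endogenous libraries, and 3 of Ercc2 in circulating library 2, set the precision of those genes.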
